A study of Mus musculus with 19 samples.

Results

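The genes described here are the interleukin-1 and interleukin-18 system: the ligand genes Il1a, Il1b and Il18, the soluble inhibitor genes Il1rn and Il18bp, the decoy receptor gene Il1r2, and the receptor genes Il1r1, Il1rap and Il18r1. They are 9 of the 18193 genes that have a probe set with a single gene symbol on the array. Each gene was read from its brightest probe set by the mean of the 19 arrays, and the other probe sets, which bring the total to 16, served as a check. Of the 9 genes, 7 were over log2 4 on at least 4 arrays and were tested with the 8515 genes that passed this filter. Il1rn and Il18r1 did not pass it in the probe set used and are given by level.

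RNA was taken from livers of male C57BL/6 mice aged 10 to 12 weeks, 2 h after resection of 85% of the liver, with 1 array per mouse. There were 4 livers null for both Ager and Myd88 (MRKO), 4 null for Myd88 alone (MKO), 6 null for Ager alone (RKO) and 5 wild-type livers (WT). All 4 genotypes had the same resection and the same interval, and no unresected liver was analysed here, so each value is a level after injury and each difference is between genotypes. The labels call the mice null and give no allele, promoter or Cre driver. The design asks what the loss of RAGE, the receptor encoded by Ager, and of the adaptor MyD88 does to the early liver response.

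Interleukin-1 alpha and interleukin-1 beta bind the receptor IL1R1, which pairs with the accessory protein IL1RAP and signals inside the cell through MyD88 and IRAK kinases to NF-kB. Interleukin-18 binds IL18R1 and uses the same adaptor. The antagonist encoded by Il1rn, the decoy receptor encoded by Il1r2 and the binding protein encoded by Il18bp hold the cytokines in check. In liver, Kupffer cells are a known source of these cytokines, and hepatocytes carry the interleukin-1 receptor and answer with acute-phase proteins.

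On these arrays Myd88 itself averaged 3.45 ± 0.58 (log2, SD, n = 4) in MRKO, 3.49 ± 0.34 (n = 4) in MKO, 5.91 ± 0.38 (n = 6) in RKO and 5.55 ± 0.29 (n = 5) in WT, with no overlap between livers with and without the gene. The brighter Ager probe set read between 2.85 and 3.64 on all arrays, under the filter in every group, and checks nothing. Of 8 hepatocyte markers on the array all passed the filter, Ass1 at 3.56 to 5.37 and the other 7 at 11.49 or more on every array, and Podxl was the only 1 of 9 markers of kidney and glomerulus to pass the filter, although the labels' extraction text speaks of glomeruli. The array MKO 4 stood apart: the mean of 13 Kupffer cell and macrophage markers, all over the filter, was 6.79 there. Over the other arrays it ran from 8.40 to 9.06 in MRKO, up to 8.75 in MKO, from 8.08 to 9.20 in RKO and from 8.28 to 9.19 in WT. The descriptions number the arrays with an S number of unstated meaning. Its ranges 1 to 6, 7 to 12 and 13 to 20 hold different mixes of genotypes, and no range holds both MRKO and RKO livers. All RKO livers lie in 13 to 20, where MKO 4 and WT 5 are the other arrays.

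Among the members the clearest difference between genotypes was in Il1r1, the signalling receptor, which was lower in MRKO than in RKO livers, a comparison in which 2.44% of all tested genes were called. Il1rn, the antagonist, sat lower in both Myd88-null groups than in WT on a dim probe set and passed no test. The ligands Il1a, Il1b and Il18, the decoy Il1r2 and the binding protein Il18bp had no difference that passed the test. In a second, dim probe set of Il1rap every MKO liver lay above every MRKO and every WT liver, with adjusted p-values on both sides of the threshold, while its bright probe set overlapped between groups.

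**Figure D1:**
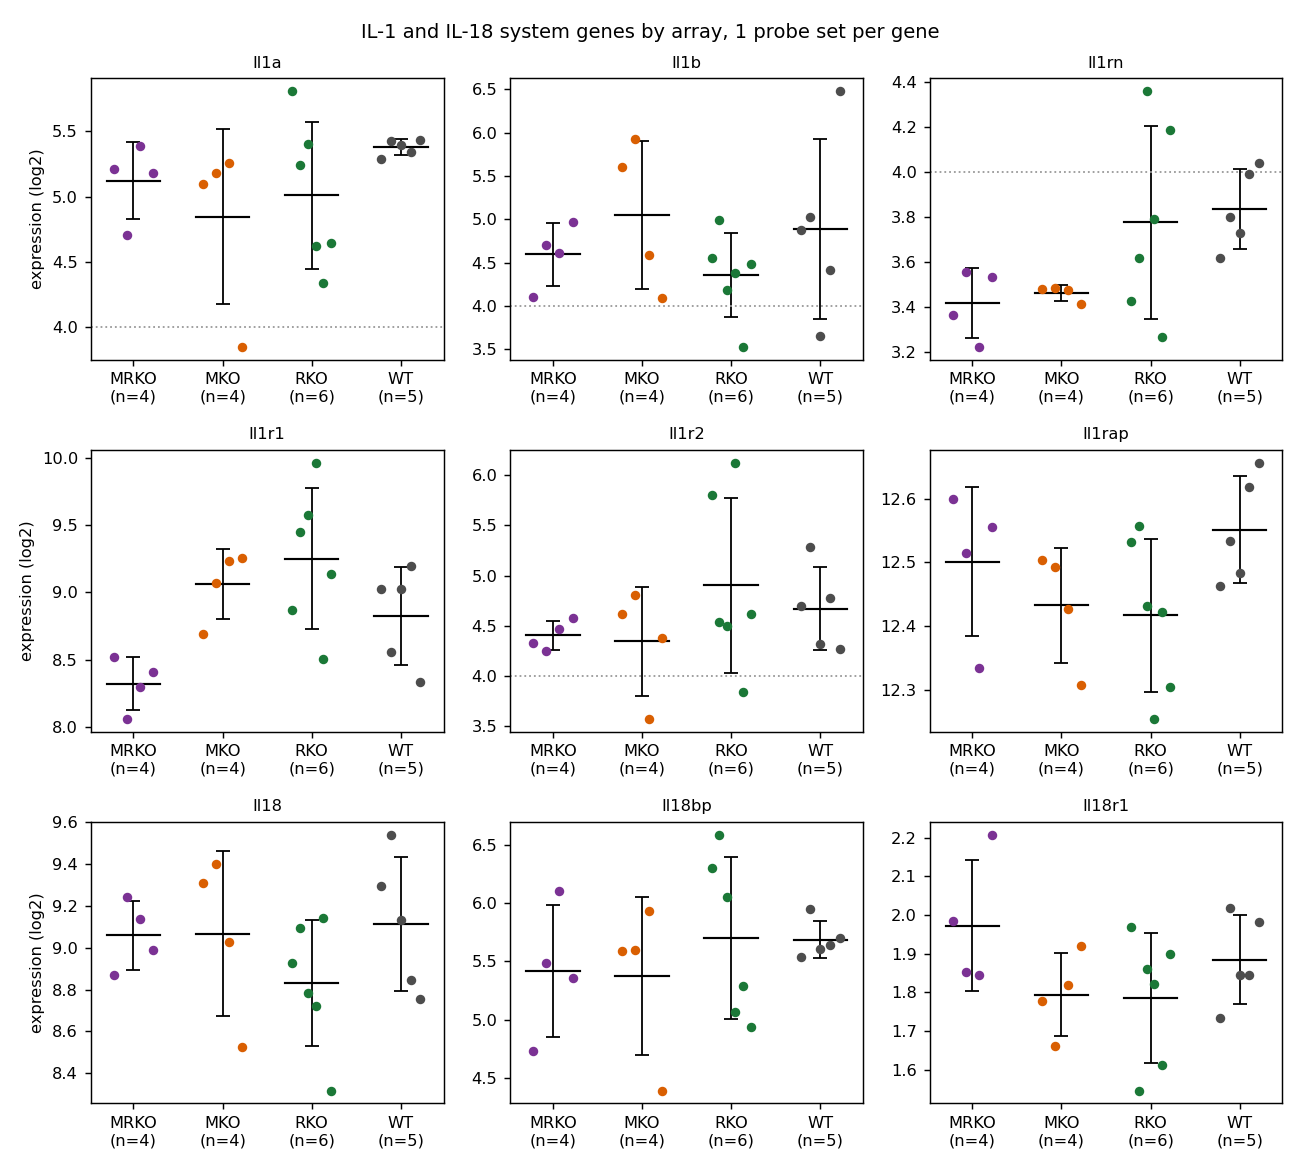
Expression (log2, vertical axis of each panel) of the 9 members by genotype, with 1 point per liver and the mean and SD as bars; the dotted line marks the log2 4 filter where it falls in the panel. The 4 MRKO livers lie at 8.06 to 8.52 in the Il1r1 panel, and the lowest MKO point of the Il1a panel is MKO 4.

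The ligands were read first. Il1a, an alarmin released by damaged cells, read 5.21, 4.70, 5.39 and 5.18 in the 4 MRKO livers, 5.10, 5.18, 5.26 and 3.85 in the 4 MKO livers, 4.34 to 5.81 with a median of 4.94 in the 6 RKO livers, and 5.29, 5.43, 5.40, 5.34 and 5.43 in the 5 WT livers. The WT livers were close together (SD 0.06) and every MKO liver lay below them, with 1 MKO liver far under the rest. Il1a differed by -0.26 ± 0.29 (log2, SE) between MRKO and WT, by -0.53 ± 0.29 between MKO and WT and by -0.37 ± 0.26 between RKO and WT. None of these passed the test in limma (adjusted p = 0.854, 0.314 and 0.423). Without MKO 4, the array with the low Kupffer cell markers, the MKO difference was -0.20 ± 0.25. In these bulk samples fewer cells of a type and less RNA per cell cannot be told apart, and the part of the marker shift in the Il1a level was not tested.

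Il1b, the cytokine cut to its active form by caspase-1, read 4.11, 4.70, 4.61 and 4.97 in MRKO livers, 5.60, 5.92, 4.58 and 4.09 in MKO livers, 3.52 to 4.99 with a median of 4.43 in RKO livers, and 4.88, 5.02, 3.65, 4.42 and 6.48 in WT livers. The WT livers spanned almost the whole range of the other groups, with WT 5 the highest of all. The differences from WT were -0.29 ± 0.45 in MRKO, 0.16 ± 0.45 in MKO and -0.54 ± 0.41 in RKO (limma, adjusted p from 0.457 to 0.901). Without WT 5 the differences were 0.105 in MRKO, 0.560 in MKO and -0.139 in RKO, and without WT 3 the MKO difference was -0.148. The interval of the MRKO difference ran from -1.24 to 0.66, a range of differences that this number of livers does not resolve.

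Il18, a cytokine that drives interferon-gamma release by T and NK cells, was steady by comparison. It read 8.87, 9.24, 9.14 and 8.99 in MRKO livers, 9.31, 9.40, 9.03 and 8.53 in MKO livers, 8.32 to 9.14 with a median of 8.85 in RKO livers, and 9.29, 9.54, 9.13, 8.85 and 8.76 in WT livers. All 4 groups overlapped. The differences from WT were -0.05 ± 0.20 in MRKO, -0.05 ± 0.20 in MKO and -0.28 ± 0.18 in RKO, with adjusted p-values in limma of 0.368 to 0.968. Il18 lies on chromosome 9 with Myd88, 1409 annotated genes away.

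Of the inhibitors Il1rn was dim, and Il18bp was over the filter on all 19 arrays. Il1rn, which encodes the interleukin-1 receptor antagonist, read 3.36, 3.56, 3.22 and 3.53 in MRKO livers, 3.48, 3.49, 3.48 and 3.41 in MKO livers, 3.27 to 4.36 with a median of 3.71 in RKO livers, and 3.62, 3.80, 3.73, 3.99 and 4.04 in WT livers. Every MRKO and every MKO liver lay below every WT liver, while the RKO livers spanned both. Without the filter, groups did not overlap for 2.71% of all 18193 genes in MRKO against WT and for 3.8% in MKO against WT. In a fit without the filter the difference from WT was -0.42 ± 0.17 in MRKO (adjusted p = 0.609), -0.37 ± 0.17 in MKO (0.323) and -0.06 ± 0.16 in RKO (0.910).

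The second brightest probe set of Il1rn passed the filter and was looked at as a check. It read 3.11, 2.85, 2.89 and 2.79 in MRKO livers, 3.03, 3.35, 3.45 and 3.56 in MKO livers, 2.75 to 4.87 with a median of 4.03 in RKO livers, and 3.94, 3.45, 3.65, 4.18 and 3.78 in WT livers. The MRKO livers were again below all WT livers, a pair of groups that did not overlap for 3.42% of the 13505 probe sets over the filter. The MKO livers overlapped the WT livers here. Over log2 4 were 3 of the 6 RKO livers and 1 WT liver, with 0 in MRKO and 0 in MKO. This probe set thus passed the filter only through the groups with Myd88. Averaged over both Ager backgrounds, the Myd88-null livers differed from the others by -0.36 ± 0.12 in the first probe set and by -0.76 ± 0.21 in the second, the same direction in both. Neither passed the test (limma, adjusted p = 0.205 for the first over all 18193 genes and 0.163 for the second over all 34945 probe sets with 1 symbol). With only the 13505 probe sets over the filter tested, a choice made after the data were seen, the second had an adjusted p of 0.119, and it passed in 1 of 19 fits that left out an array, the one without RKO 5 (0.0336). Between MRKO and RKO it differed by -1.06 ± 0.30 (adjusted p = 0.0714), which likewise passed without RKO 5 alone (0.0212). Of the 13505 probe sets 0.407% were called in the pooled contrast and 1.47% between MRKO and RKO. Because its filter entry came from the groups with Myd88, the tests of this probe set among the 13505 are no independent evidence. The third Il1rn probe set was under the filter on all 19 arrays, and its MRKO and MKO livers overlapped the WT livers. Its difference from WT was -0.23 ± 0.17 in MRKO and -0.24 ± 0.17 in MKO. In the pooled contrast it was -0.28 ± 0.12 (limma, adjusted p = 0.348 over all 34945 probe sets).

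The RefSeq promoter windows of Il1rn are shown because this gene lay below WT in both Myd88-null groups in its brightest probe set. Each window runs from 250 bases before to 50 bases after an annotated start, on the plus strand of GRCm38.p6 (Il1rn, gene 16181, at chr2:24336860-24351491). Capitals mark matches on either strand to the AP-1 letters TGANTCA in the first and to the C/EBP letters TTNNGNAA in the second, where the last 2 of the 3 matches overlap.
Il1rn, chr2:24336610-24336909: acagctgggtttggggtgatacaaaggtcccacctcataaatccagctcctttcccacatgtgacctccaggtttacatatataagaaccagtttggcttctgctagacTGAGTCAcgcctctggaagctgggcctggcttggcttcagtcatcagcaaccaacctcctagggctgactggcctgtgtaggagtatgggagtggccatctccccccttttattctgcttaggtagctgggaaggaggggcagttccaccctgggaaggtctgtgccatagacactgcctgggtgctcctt
Il1rn, chr2:24345041-24345340: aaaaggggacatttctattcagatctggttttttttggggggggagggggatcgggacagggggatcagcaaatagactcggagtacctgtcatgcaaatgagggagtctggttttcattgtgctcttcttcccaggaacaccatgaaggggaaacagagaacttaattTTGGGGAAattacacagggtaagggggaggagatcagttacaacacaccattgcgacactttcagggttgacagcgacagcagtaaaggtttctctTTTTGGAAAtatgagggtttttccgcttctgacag
Another Il1rn window overlaps the second and is not printed. Neither printed window held a match to the kappaB motif of NF-kB, which 8.459% of all 32851 promoter windows hold, and the AP-1 letters occur in 7.808% and the C/EBP letters in 40.684% of them. These are descriptions of letters and not binding sites.

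Il18bp encodes the secreted protein that neutralises interleukin-18. It read 4.73, 5.49, 6.10 and 5.36 in MRKO livers, 5.59, 5.60, 5.93 and 4.39 in MKO livers, 4.94 to 6.59 with a median of 5.67 in RKO livers, and 5.54, 5.95, 5.61, 5.64 and 5.70 in WT livers. The WT livers were close together, and the MRKO and RKO livers spread to both sides of them. Of the MKO livers only MKO 4 lay outside the WT range, below it. Differences from WT were -0.27 ± 0.35 in MRKO, -0.31 ± 0.35 in MKO and 0.02 ± 0.32 in RKO (limma, adjusted p from 0.645 to 0.978). The lowest liver was MKO 4, and without it the MKO difference was 0.02 ± 0.34.

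Il1r2, the decoy receptor that binds interleukin-1 without signalling and is abundant on neutrophils, read 4.33, 4.25, 4.46 and 4.58 in MRKO livers, 4.62, 4.81, 3.58 and 4.38 in MKO livers, 3.84 to 6.12 with a median of 4.58 in RKO livers, and 4.70, 5.29, 4.32, 4.77 and 4.27 in WT livers. The RKO livers held both the highest values, 6.12 and 5.80, and one of the lowest. No comparison passed (MRKO against RKO -0.50 ± 0.36, adjusted p = 0.417 in limma). The neutrophil genes S100a8 and S100a9, the only 2 of 8 neutrophil markers on the array over the filter, moved with it across livers: their highest RKO values were 11.30 and 10.85 in RKO 4, which had the highest Il1r2, and their lowest values of all were 8.22 and 7.73 in MKO 3, which had the lowest. The log2 of the summed level of the 8 markers ran from 11.12 to 11.25 in MRKO, 9.11 to 11.78 in MKO, 9.20 to 12.11 in RKO and 10.98 to 12.25 in WT. Linear levels were summed, so S100a8 and S100a9 make up most of this value and it adds no separate evidence. The part of neutrophil number in the Il1r2 level was not tested.

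**Figure D2:**
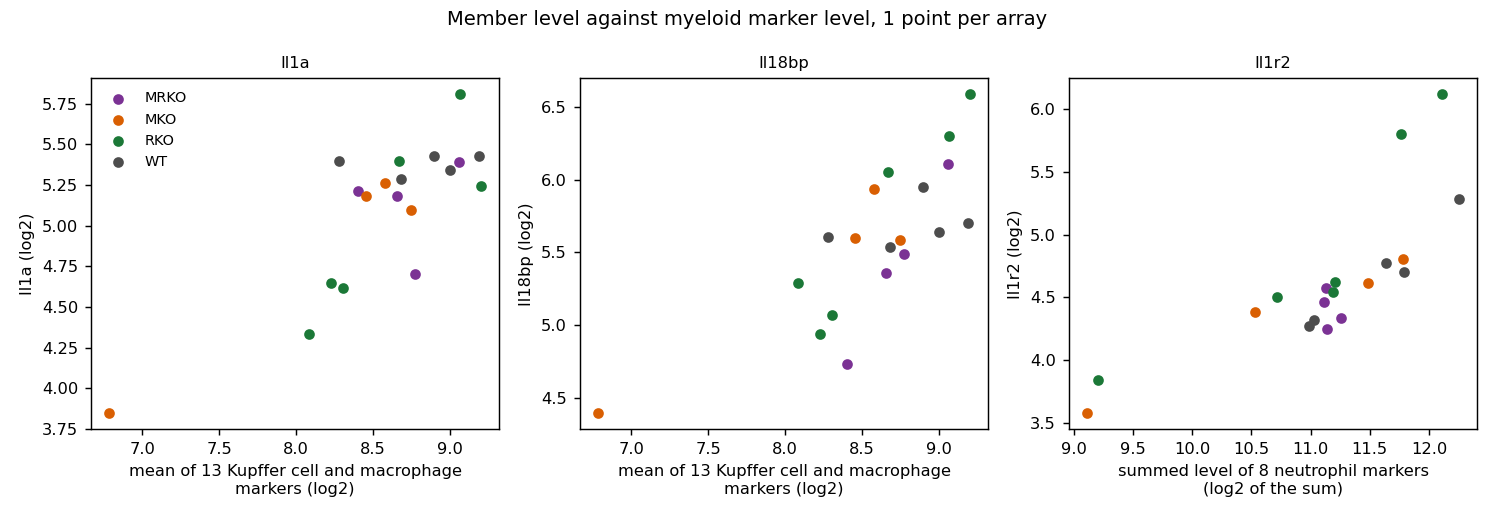
Level (log2) of Il1a, Il18bp and Il1r2 in each liver against marker levels: the mean log2 value of 13 Kupffer cell and macrophage markers in the first pair of panels and the log2 of the summed level of 8 neutrophil markers in the last. MKO 4 is the point at 6.79 in the first pair, and RKO 4 has the highest Il1r2 level, 6.12. S100a8 and S100a9 make up most of the neutrophil sum.

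Il1r1 was the member with a difference that passed the test. It read 8.52, 8.06, 8.29 and 8.41 in MRKO livers, 8.69, 9.07, 9.24 and 9.25 in MKO livers, 8.50 to 9.96 with a median of 9.29 in RKO livers, and 9.02, 8.56, 9.03, 9.19 and 8.33 in WT livers. All MRKO livers were below all MKO livers, and the highest MRKO value lay just over the lowest RKO value, so MRKO and RKO overlapped by 1 liver on each side. WT livers reached down into the MRKO range. The order of the group means was MRKO 8.32 ± 0.20 (SD, n = 4), WT 8.83 ± 0.36 (n = 5), MKO 9.06 ± 0.26 (n = 4) and RKO 9.25 ± 0.52 (n = 6), and each neighbouring pair in this order overlapped.

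Il1r1 fell by 0.93 ± 0.23 (log2, SE) in MRKO, against RKO, to 0.525 of the RKO level (limma, adjusted p = 0.0466). It was -0.74 ± 0.26 between MRKO and MKO (adjusted p = 0.230), -0.51 ± 0.24 between MRKO and WT (0.585), 0.24 ± 0.24 between MKO and WT (0.604) and 0.42 ± 0.22 between RKO and WT (0.269). The interaction, which asks whether Myd88 loss does the same with and without Ager, was -1.16 ± 0.34 with an adjusted p of 0.0609. The call against RKO was lost without any one of 14 arrays, leaving the fits without MKO 1, MKO 4, RKO 1, RKO 5 or WT 5 past the threshold, with differences of -1.08 to -0.79 and adjusted p-values of 0.0220 to 0.156 over all 19. It was also lost with the S range as a block (-1.15, adjusted p = 0.161), and no S range holds both groups, so a within-range value cannot be had. The interaction passed without MKO 1 (adjusted p = 0.0186) or without RKO 5 (0.0476). Within the S ranges that hold both groups, MRKO lay -0.50 and -0.76 from WT and -0.59 and -0.88 from MKO, the last with MKO 3 as the only MKO liver.

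Most markers of stellate cells and fibroblasts lay on the same side as Il1r1 between MRKO and RKO, but not between MRKO and WT or MKO. Of 9 on the array 7 were tested, and 6 lay below 0 between MRKO and RKO with a median of -0.18, while all 7 lay above 0 between RKO and WT with a median of 0.57. Between MRKO and WT 6 lay above 0 with a median of 0.30, and between MRKO and MKO 4 did with a median of 0.16. Il1r1 lay below 0 in both of these comparisons. The log2 of their summed level ran from 11.76 to 12.00 in MRKO, 11.57 to 12.09 in MKO, 11.93 to 12.40 in RKO and 11.44 to 12.03 in WT. Col1a2, which encodes a chain of type I collagen, was the 1 that passed. Only RKO livers were over log2 4 in Col1a2, so it entered the test through the group in which it was high. It read 3.80, 3.27, 3.81 and 3.81 in MRKO livers, 3.87 to 4.79 with a median of 4.29 in RKO livers, and 3.63, 3.39, 3.79, 3.73 and 3.45 in WT livers. Col1a2 did not overlap between MRKO and RKO, as for 8.39% of all tested genes. It differed by -0.64 ± 0.16 between MRKO and RKO (limma, adjusted p = 0.0475), a call that held in 3 of 19 fits without an array, those without MKO 1, MKO 4 or RKO 6, and by 0.72 ± 0.15 between RKO and WT (adjusted p = 0.0357), which held in 13. Over the other alternatives these differences ran from -0.86 to -0.34 and from 0.34 to 0.89. No S range holds both MRKO and RKO livers, and WT 5 is the only WT liver in the range of the RKO livers. The calls of Col1a2 are no independent evidence, because its filter entry came from RKO alone. Of 9 endothelial markers 5 lay below 0 between MRKO and RKO, with a median of -0.05, and of 8 hepatocyte markers 7, with a median of -0.08. The part of these cells in the Il1r1 level was not tested.

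The other Il1r1 probe set read 2.01 to 2.59 on all arrays, under the filter, and gave 0.04 ± 0.09 between MRKO and RKO. Il1r1 (gene 16177) lies at chr1:40222480-40316201 on GRCm38.p6, on the chromosome that also carries Il1r2 and Il18r1. A pair of its RefSeq promoter windows, both on the plus strand, is shown because it is the member whose level differed. Capitals mark matches to the C/EBP letters in the first, and in the second 1 match to the kappaB motif that overlaps 1 C/EBP match.
Il1r1, chr1:40224830-40225129: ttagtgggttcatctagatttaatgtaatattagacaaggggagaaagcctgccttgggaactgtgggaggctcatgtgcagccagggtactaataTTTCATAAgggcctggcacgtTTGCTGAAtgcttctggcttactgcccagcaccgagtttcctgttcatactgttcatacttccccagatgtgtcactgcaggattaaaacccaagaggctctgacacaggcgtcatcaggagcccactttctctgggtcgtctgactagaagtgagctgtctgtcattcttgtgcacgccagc
Il1r1, chr1:40266336-40266635: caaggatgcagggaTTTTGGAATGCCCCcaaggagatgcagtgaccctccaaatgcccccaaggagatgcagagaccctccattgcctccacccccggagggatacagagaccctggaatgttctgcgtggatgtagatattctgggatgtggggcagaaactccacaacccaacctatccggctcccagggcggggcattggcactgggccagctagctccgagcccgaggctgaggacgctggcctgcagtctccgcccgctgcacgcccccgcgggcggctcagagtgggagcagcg
The second window was the only one of the 14 member windows with a kappaB match, against 8.459% of all windows. The STAT letters TTCNNNGAA, held by 8.298% of all windows, occurred in neither Il1r1 window, and the TATA box letters TATAAA, held by 13.616%, in neither. Which start these livers use was not measured, and a match is not evidence that a factor binds.

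Il1rap encodes the accessory chain that IL1R1 needs to signal, in a membrane form and, in liver, a secreted form. Its bright probe set read 12.25 to 12.66 on all 19 arrays, with means of 12.50 ± 0.12 (SD, n = 4) in MRKO, 12.43 ± 0.09 (n = 4) in MKO, 12.42 ± 0.12 (n = 6) in RKO and 12.55 ± 0.08 (n = 5) in WT. The largest of its 5 differences between groups was -0.13 ± 0.08 between RKO and WT (limma, adjusted p = 0.355), and the intervals of all 5 stayed within -0.31 and 0.27.

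The second brightest probe set of the same gene, a dim one, gave another pattern. It read 3.86, 3.30, 3.33 and 3.08 in MRKO livers, 4.88, 4.55, 4.26 and 4.75 in MKO livers, 3.17 to 4.29 with a median of 4.00 in RKO livers, and 3.32, 3.51, 3.72, 3.90 and 3.28 in WT livers. All 4 MKO livers were above all MRKO and all WT livers, where 5.41% and 4.24% of the 13505 probe sets over the filter did not overlap, and MKO and RKO overlapped. The difference was -1.22 ± 0.24 between MRKO and MKO, 1.06 ± 0.22 between MKO and WT, and -1.52 ± 0.31 for the interaction. Among all 34945 probe sets with 1 symbol none of the 3 passed (limma, adjusted p = 0.0735, 0.0690 and 0.0538). Among the 13505 over the filter, a table added after the data were seen, MRKO against MKO (0.0495) and the interaction (0.0357) passed and MKO against WT (0.0532) did not, where 0.148%, 1.57% and 0.267% of probe sets were called. In this probe set 4 MKO and 3 RKO livers were over log2 4, with 0 in MRKO and 0 in WT. It thus passed the filter only through groups where it was high, and these passes are no independent evidence.

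The call of MRKO against MKO was lost without any one of 14 arrays and that of the interaction without any one of 11, while the differences stayed at -1.38 to -1.11 and at -1.67 to -1.41. The MRKO difference from MKO passed only in the fits without MRKO 1, MKO 1, RKO 3, RKO 4 or RKO 5, and the interaction only without MRKO 1, MKO 1, RKO 1, RKO 3, RKO 4, RKO 6, WT 3 or WT 4. MKO against WT passed without MKO 1, RKO 3 or RKO 4. With the S range as a block the difference was -1.23 (adjusted p = 0.126) for MRKO against MKO and -1.58 (0.162) for the interaction, and with the replicate block the adjusted p was 0.0935 and 0.0524. The direction was the same within each S range: MRKO lay -1.14 and -1.06 from MKO, and MKO lay 1.30, 0.45 and 1.46 from WT. On the MKO side the values of -1.06 and 0.45 rest on MKO 3 alone, and 1.46 sets MKO 4 against WT 5 alone. The other 3 Il1rap probe sets averaged 2.15 to 3.20 in every group. The annotation gives the bright probe set a RefSeq transcript and the dim one an EST, and neither states which form of the mRNA is read.

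**Figure D3:**
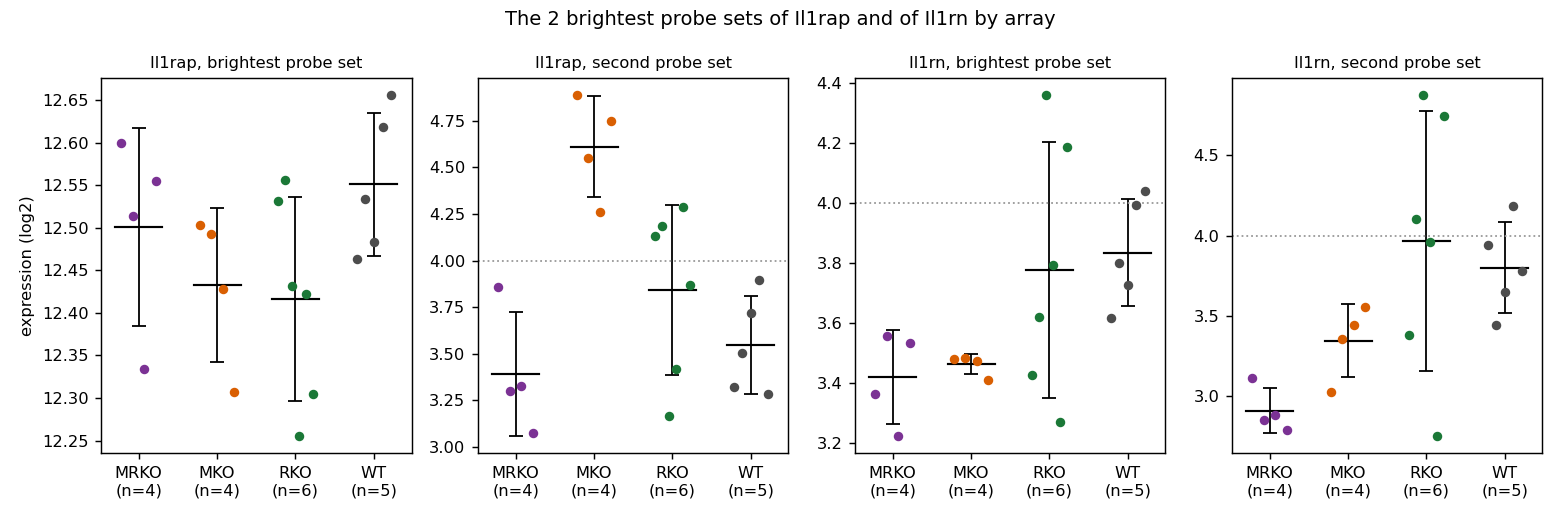
Expression (log2) by genotype in a pair of probe sets each for Il1rap and Il1rn, with 1 point per liver, the mean and SD as bars and a dotted line at the log2 4 filter. In the second Il1rap probe set the MKO livers stand at 4.26 to 4.88, while the brightest spans 12.25 to 12.66 over all livers.

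Il18r1, the ligand-binding chain of the interleukin-18 receptor found mainly on T and NK cells, read 1.55 to 2.21 on all arrays. It is under the filter everywhere, so no level or difference is drawn from it. Of 10 T and NK cell markers on the array 0 were over the filter, with per-array means of 2.47 to 2.70.

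Counted over the comparisons, the members showed few calls. Between MRKO and RKO 1 of 7 passed, lower, where 2.44% of all tested genes were called and 0.846% were called lower. None of 7 passed between MRKO and WT (0.317% of all genes), MKO and WT (0.399%), RKO and WT (1.26%) or MRKO and MKO (0.153%), in the pooled Myd88 contrast (0.517%) or in the interaction (2.41%). At an unadjusted p under 0.05 in limma, 1 of the 7, Il1r1, passed in MRKO against MKO (16.1% of all genes), MRKO against RKO (22.7%) and the interaction (27.2%). In the other 4 comparisons 0 of the 7 passed, where 8.57% (MRKO against WT), 19.6% (MKO against WT), 21.6% (RKO against WT) and 15.2% (pooled) of all genes did. Groups did not overlap for Il1a in MKO against WT (4.52% of all genes) and for Il1r1 in MRKO against MKO (5.91%), and for Il1rn, which was under the filter, in MRKO and in MKO against WT.

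The direction of the members was set against that of all genes. Between MRKO and WT all 7 lay below 0, with a median of -0.26, while the median of all genes was 0.07 and 64.1% lay above 0. With 1 array left out, Il1b reached 0.105, Il18 0.052 and Il1rap 0.0056, so this count of 7 moves with single livers. The median member stood at -0.12 between MKO and WT (all genes 0.06), at -0.13 between RKO and WT (0.02) and at -0.21 in the pooled Myd88 contrast (0.06). It was 0.04 between MRKO and MKO (all genes 0.00), 0.08 between MRKO and RKO (0.04) and 0.08 in the interaction (-0.02). The comparisons with WT share the WT livers.

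**Figure D4:**
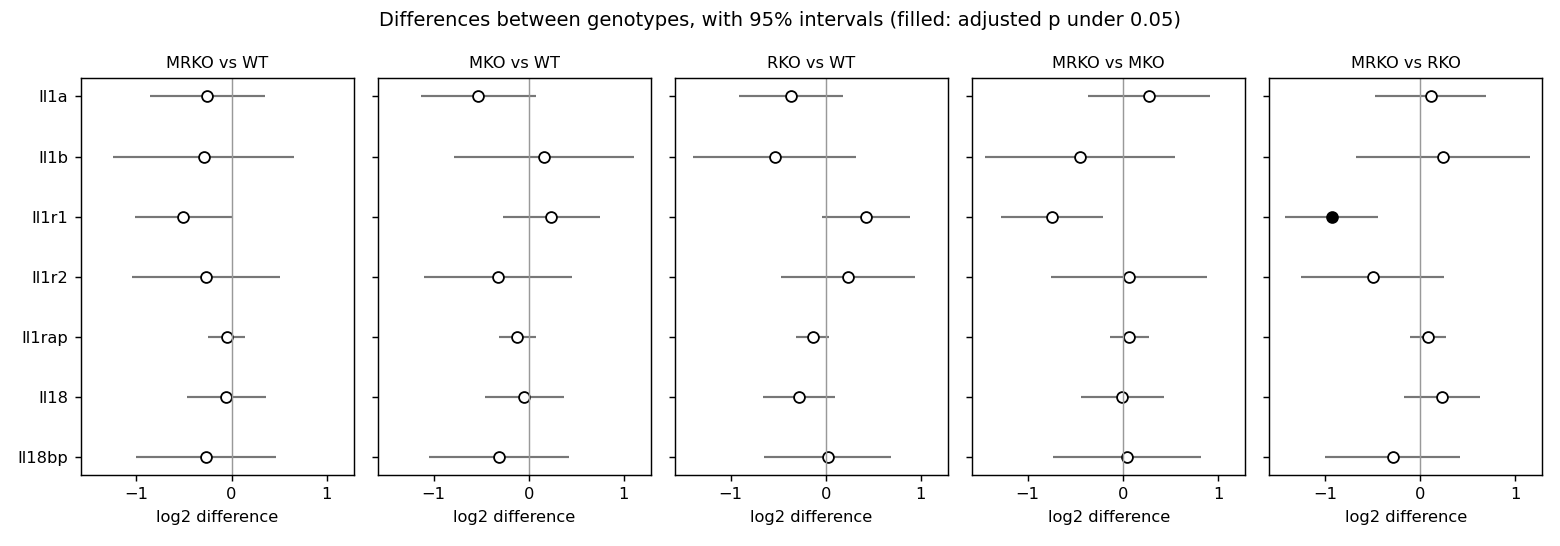
Difference in level (log2, horizontal axis) of the 7 tested members in 5 comparisons, with limma's 95% intervals as lines; a filled point passed an adjusted p under 0.05. Il1r1 between MRKO and RKO, at -0.93, is the only filled point.

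The rest of the family and its machinery was read from lists. Of the other ligands, Il33 and the Il36 genes among them, 0 of 5 on the array passed the filter. Of 5 other receptors on the array 1 passed, Sigirr, a receptor that dampens the pathway, at 0.05 ± 0.17 in the pooled Myd88 contrast. Of 9 inflammasome and cytokine processing genes on the array 4 were tested and 0 called. They were Nek7, which triggers NLRP3 (0.23 ± 0.10 in that contrast, adjusted p = 0.258 in limma), the adaptor Pycard (0.15 ± 0.21), Casp1, which cuts pro-interleukin-1 beta (-0.08 ± 0.16), and the pore protein gene Gsdmd (0.05 ± 0.14).

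Of the receptor signalling chain 12 of 14 genes on the array were tested. Myd88 was called in each comparison of livers without it against livers with it. Tollip, which binds the receptor complex and restrains IRAK1, was at 9.02, 8.85, 8.85 and 8.63 in MRKO livers and 8.37 to 8.61, median 8.44, in RKO livers. These groups did not overlap, as for 8.39% of all tested genes, and Tollip was higher in MRKO by 0.38 ± 0.10 (limma, adjusted p = 0.0466). The mean of its probe sets gave 0.13 (adjusted p = 0.602), median centring of the arrays 0.32 (0.0809) and repeated quantile normalization 0.34 (0.0684), and the call held in 3 of 19 fits that left out an array, those without MKO 1, MKO 4 or WT 2. Over the alternatives that kept every array the Tollip difference ran from 0.13 to 0.48. No S range holds both MRKO and RKO livers, so genotype and S range cannot be told apart in it. The median of the 12 signalling chain genes was 0.08 between MRKO and WT and -0.11 between MRKO and RKO.

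Genes known to be induced by interleukin-1, most of them by other NF-kB inputs as well, were read as a list of 16 tested genes. Of these, 15 lay below 0 between MRKO and WT with a median of -0.87, 13 between MKO and WT with a median of -0.35, and 11 between RKO and WT with a median of -0.28. Between MRKO and RKO 14 lay below 0 with a median of -0.60. Of all tested genes 35.9%, 40.8%, 47.8% and 43.7% lay below 0 in these 4 comparisons. With any one array left out these medians ran from -0.93 to -0.77, -0.45 to -0.24, -0.39 to -0.23 and -0.76 to -0.46.

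Cell markers are given beside these values. Of the 13 Kupffer cell and macrophage markers 9 lay below 0 between MRKO and WT with a median of -0.09, 12 between MKO and WT with a median of -0.67, 11 between RKO and WT with a median of -0.23, and 4 between MRKO and RKO with a median of 0.14. Both tested neutrophil markers lay below 0 in the comparisons with WT, with medians of -0.38 in MRKO, -0.84 in MKO and -0.51 in RKO, and above 0 between MRKO and RKO with a median of 0.14. Single livers weighed on the MKO medians. The mean of the 13 markers was 8.75, 8.45, 8.58 and 6.79 in the MKO livers, against 8.28 to 9.19 in WT. S100a8 read 10.72, 11.01, 8.22 and 9.80 in the MKO livers, against 10.25 to 11.46 in WT. None of these markers was called, and their part in the response genes was not tested.

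Single genes of this list rarely passed. Cxcl10, a T cell chemokine, read 4.39, 4.46, 4.07 and 4.46 in MRKO livers, against 5.13, 7.30, 5.54, 6.04 and 7.09 in WT livers. It fell by 1.88 ± 0.39 in MRKO (limma, adjusted p = 0.0437), with no overlap, as for 3.81% of all tested genes. Nfkbiz, an NF-kB cofactor induced by interleukin-1, read 7.95, 8.87, 7.89 and 8.22 in MRKO livers and 8.48 to 10.22, median 9.30, in RKO livers. It fell by 1.13 ± 0.28 in MRKO, against RKO (limma, adjusted p = 0.0459), with groups that overlapped. The Cxcl10 call held in 6 of 19 fits without an array, those without MKO 1, RKO 2, RKO 4, RKO 5, WT 1 or WT 3, and the Nfkbiz call in 7, those without MRKO 2, MKO 1, MKO 4, RKO 5, WT 3, WT 4 or WT 5. Over those 19 fits the difference was -2.15 to -1.61 for Cxcl10 and -1.34 to -0.95 for Nfkbiz. With the S range as a block it was -1.75 (adjusted p = 0.0942) for Cxcl10 and -1.22 (0.237) for Nfkbiz. In MKO against WT, RKO against WT and the pooled contrast 0 of 16 were called. Saa3 lay on the other side, at 1.33 ± 0.35 between MRKO and WT and 1.09 ± 0.35 between MKO and WT. Between MRKO and RKO Saa3 was at 1.01 ± 0.34. None of these 3 passed (limma, adjusted p = 0.167, 0.126 and 0.105). The list was chosen with earlier results of these livers known, so its direction is no independent evidence.

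**Figure D5:**
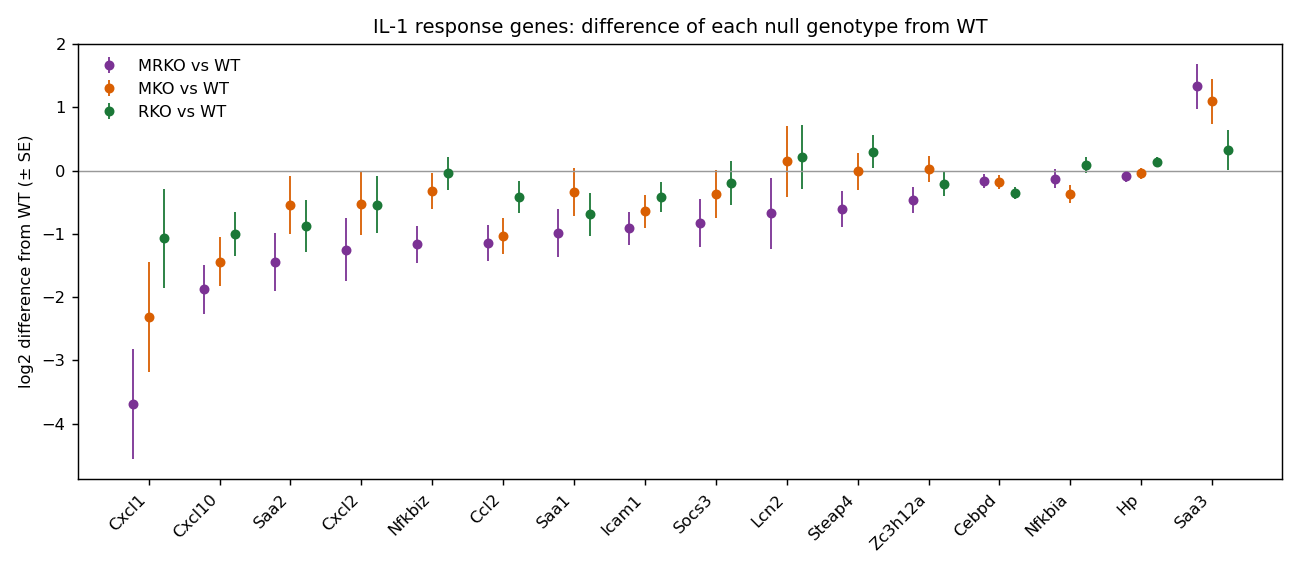
Difference from WT (log2, vertical axis, with SE bars) of the 16 tested interleukin-1 response genes in MRKO, MKO and RKO, ordered by the MRKO difference. Of the MRKO points 15 lie below 0, and Saa3 is the exception.

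Of the genes known to follow interleukin-18, Cxcl9 was the only 1 of 6 over the filter, at 0.06 ± 0.25 in the pooled Myd88 contrast. Ifng and the cytotoxic genes of the list were under it.

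The tested genes whose level over the 19 arrays was most like that of a member differed from member to member. For Il1r2 they were S100a9 (Pearson r = 0.806, Spearman rho = 0.883) and S100a8 (0.781 and 0.818), followed by Mal2. For Il1a they were Pgm2 (0.861 and 0.839), Clec1b (0.860 and 0.601) and the macrophage gene Cd5l (0.839 and 0.654), and without MKO 4 these r were 0.762, 0.804 and 0.698. For Il18bp they were Fcgr3, an Fc receptor of myeloid cells, Ctss, a lysosomal protease, and Gimap6, with r of 0.853 to 0.863. Without MKO 4 these r were 0.794 to 0.834, and with group means removed 0.873 to 0.911. For Il1r1 they were Sec24b, the complement gene Hc and the apolipoprotein gene Saa4, with r of 0.803 to 0.818. With group means removed these r were 0.647 to 0.713, so part of the likeness lies in differences between groups. For Il18 they were Trim12a, Borcs7 and Rtp4, for Il1b Rps29, Rbis and Aif1, and for Il1rap Thap12, Hagh and Fam151b. The genes were picked for their r among 8515, so no p is given, and all arrays share one normalization.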

How the data were processed

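For 19 Affymetrix arrays the authors deposited log2 values, 1 per probe set, made with GCRMA 2.16 per the submitters' processing notes. They were used as given, and no source used here gives further steps. GCRMA corrects background from probe sequence. Dim probe sets lie near the floor of the values, where differences are less certain. The deposited log2 values ran from 0.743 to 15.624. Groups and replicate numbers were taken from the titles. Of 45101 probe sets, 34945 carried 1 gene symbol, and each of 18193 genes was read from the brightest. Genes over log2 4 on at least 4 arrays (8515) were fitted in limma 3.58.1 under R 4.3.3 (lmFit, eBayes), with 4 groups in 1 fit, two-sided tests and Benjamini-Hochberg adjustment over the genes of each of 7 comparisons. Calls were made at an adjusted p under 0.05. The pooled Myd88 contrast is the mean of MRKO and MKO minus the mean of RKO and WT, and the interaction is (MRKO minus RKO) minus (MKO minus WT). Errors of differences are SEs of the fit. The fit was tested on simulated arrays, whose outcome is not given here, so no support is drawn from them.

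The members, lists and tests were chosen with earlier results of these data known. Named beside the members are the called genes of each pathway list, otherwise up to 4 with the smallest p in the pooled contrast, the called cell marker Col1a2, and the 3 genes most like each tested member. Saa3 was named as well, for lying opposite to most response genes. Alternatives were repeated quantile normalization, median centring, no filter, values under log2 4 set to 4, the mean of probe sets, other probe sets, the S range or the replicate number as a block, only the arrays compared, values within S ranges, and each array left out. Arrays with the same replicate number did not deviate together (correlations of deviations -0.302 to 0.471, median 0.0522, over 25 pairs), so the numbers were not taken to pair the livers. The labels describe RNA per mouse, and no 2 arrays of a group were closer than a root mean square difference of 0.328. The number of arrays limits the precision. Sequences and positions are from RefSeq tables of GRCm38.p6, which held all 9 members.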

Additional observations from a re-analysis of the deposited data

Results flagged for a closer look

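In 2 of the 36 member and group pairs examined, the gap from an end liver to the next was large against the range of its own group, past a limit (Dixon's 95% value) that chance passes in about 1 in 20 groups. Both were in the array MKO 4. Il1a read 3.85 (log2) there, against 5.10 to 5.26 in the other 3 MKO livers. Il1rn read 3.41 there, against 3.48 to 3.49 in the others, a gap that is small on the log2 scale and in a probe set under the filter. MKO 4 also had the lowest mean of 13 Kupffer cell and macrophage markers, 6.79, and the lowest median correlation with the other arrays, 0.965. The part of these in the Il1a value was not tested.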

How the results depend on the processing

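The counts of members called leave out single other probe sets, which are given after them. In MRKO, MKO and RKO against WT, MRKO against MKO and the pooled Myd88 contrast the count stayed at 0 throughout. In MRKO against RKO it was 1, and it was 0 without the filter (Il1r1 adjusted p = 0.0670), with the S range as a block (0.161) and with only the arrays compared (0.0621); over the fits that left out an array it ran from 0 to 1. In the interaction it was 0, and it was 1 with the mean of the probe sets of a gene (Il1r1 -0.60, adjusted p = 0.0451) and 0 to 1 over the fits that left out an array. The other Il1r1 probe set, never over log2 3, turned the sign of MRKO against RKO to 0.042. The dim Il1rap probe set, in a table added after the data were seen, opposed the bright one at -1.22 in MRKO against MKO and -1.52 in the interaction. There it passed in both (limma, adjusted p = 0.0495 and 0.0357), and in MKO against WT in 3 of 19 fits without an array. The second Il1rn probe set passed in 1 of 19 such fits in the pooled contrast and in MRKO against RKO. Both probe sets entered through groups where they were high, so these passes are no independent evidence. The replicate block moved no count of members called and gave Il1r1 -1.11 between MRKO and RKO (adjusted p = 0.0102), a shared number and not a shared animal. It took Tollip to an adjusted p of 0.0826, and 3 of 19 arrays correlated best with their own number.

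The number of all genes called varied more. Against 27, 34, 107, 13, 208, 44 and 205 genes (MRKO, MKO and RKO against WT, MRKO against MKO, MRKO against RKO, pooled, interaction), the fits that left out an array gave 18 to 34, 10 to 987, 16 to 403, 2 to 446, 18 to 368, 19 to 73 and 0 to 1739. The other alternatives gave 19 to 46, 7 to 86, 33 to 127, 3 to 15, 91 to 302, 20 to 300 and 0 to 281, and the replicate block 46, 24, 127, 3, 138, 78 and 37. Leaving out MKO 1 gave the highest counts of MKO and RKO against WT, MRKO against MKO, MRKO against RKO and the interaction. The differences of Il1r1 between MRKO and RKO over the left-out arrays stayed between -1.08 and -0.79. The cause of the other changes was not tested. Values near or under log2 4 limit Il1rn, Il18r1 and the dim Il1rap probe set.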
